A study of Mus musculus with 6 samples.

Results

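Osteopontin, the secreted phosphoprotein encoded by Spp1, was described together with 9 genes for the cell surface proteins that bind it. These were Cd44 and the integrin subunit genes Itgav, Itgb1, Itgb3, Itgb5, Itgb8, Itga4, Itga5 and Itga9. The 10 genes were taken by symbol out of 47729 genes with counts, and 9 of them passed a filter on low counts and were among the 13767 genes fitted. The genes were chosen by the difference of Spp1 counts between the groups compared here, so their values in that comparison are given as a description, with no test. Spp1 stood out at 322 to 539 CPM (read counts scaled by library size) in the knockdown livers, against 30.7 to 40.8 CPM in the controls. Cd44 was at 11.0 to 18.7 CPM in the knockdown livers and at 5.56 to 8.38 CPM in the controls, and the integrin genes fitted had log2 fold changes, knockdown over control, between -0.50 and 0.38.

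The RNA came from livers of C57BL/6 mice, and all 6 samples had been fed a diet with 0.1% DDC for 17 days. DDC feeding blocks haem synthesis and is used in mice to cause bile duct injury with a ductular reaction. The 3 controls are titled WT and belong to the shNC arm named in the series design. The 3 others are labelled as knockdown of Atoh8, a basic helix-loop-helix transcription factor gene, by shAtoh8. How the hairpin was delivered, whether each sample was 1 animal, and the age of the mice are not stated in the sources used here. The p-values therefore reflect the scatter among these libraries alone, part of which may be technical. The cell type label reads hepatocyte, whereas the protocol describes whole livers that were removed and frozen. In such bulk RNA, fewer cells of a type and less RNA per cell cannot be told apart.

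Osteopontin acts both in the extracellular matrix and as a soluble cytokine. An Arg-Gly-Asp motif lets it bind integrins of the alpha v family and integrin alpha 5 beta 1. A neighbouring motif that is exposed when thrombin cuts the protein binds integrins that contain alpha 4 or alpha 9. CD44, the main receptor for hyaluronan, has been described as a further partner. In liver, bile duct cells, activated stellate cells and macrophages of injured tissue are known sources of osteopontin, and hepatocytes make little of it in the healthy organ.

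The stretch of DNA upstream of Spp1 is shown because Spp1 carried the difference and the silenced gene encodes a factor of the class that binds E-box motifs. It covers the 250 bases before the Spp1 start site in RefSeq, at chr5:104434861-104435110 on the plus strand (GRCm38.p6). Capitals mark the matches to the 4 motifs searched on both strands, and no matches overlapped.
Spp1 upstream region: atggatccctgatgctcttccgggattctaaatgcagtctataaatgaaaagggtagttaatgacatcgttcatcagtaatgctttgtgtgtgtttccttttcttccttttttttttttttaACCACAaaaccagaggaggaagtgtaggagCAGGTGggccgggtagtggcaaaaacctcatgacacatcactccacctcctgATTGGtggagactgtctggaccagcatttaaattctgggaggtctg
Counted from the start site, an E-box (CANNTG) began at position -98, a RUNX motif (ACCACA) at -128, and a CCAAT box (CCAAT), on the minus strand, at -46. The AP-1 motif (TGANTCA) had no match in this window. Of 32851 promoter windows of the same length, 66.2% held an E-box, 14.0% the RUNX motif, 33.8% a CCAAT box and 6.75% the AP-1 motif. Windows were found for 9 of the 10 genes, with Itgb3 missing. An E-box also lay in the windows of Itgb5, Itgb8, Itga4, Itga5 and Itga9, and none of the 4 motifs was in those of Cd44, Itgav or Itgb1. A match is a description of the letters and no evidence of binding.

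Libraries held 31912058 to 37969644 reads in genes, and control replicate 1 stood apart. Over the genes fitted, its log2 CPM correlated with the other controls at Pearson 0.916 and 0.907, while those correlated with each other at 0.984. Control replicates 1 to 3 had 63.8, 16.8 and 16.4 CPM of Atoh8, and knockdown replicates 1 to 3 had 10.2, 9.83 and 5.64 CPM. Its log2 fold change was -1.92 (SE 0.58), which did not pass with an edgeR quasi-likelihood test after Benjamini-Hochberg adjustment (adjusted p = 0.197). Without control replicate 1 it was -0.95 (SE 0.23, edgeR adjusted p = 0.0115). The defining hepatocyte transcripts Alb, Ttr and Apoa1 were abundant in every library, with Alb between 77150 and 102962 CPM. The 10 hepatocyte markers summed to 113846 to 145280 CPM in the controls and to 104463 to 120378 CPM in the knockdown livers. Of the 10, 9 had a negative log2 fold change. The median of the 10 was -0.41, and -0.13 without control replicate 1, beside -0.05 and 0.01 over all genes. None of the 10 was called by edgeR or DESeq2, and limma-voom with quality weights called 3. An unadjusted p under 0.05 was reached by 2, Ttr and Cps1, both lower without overlap of the groups (log2 fold changes -0.61 and -0.81). Over all genes, 14.5% had an unadjusted p under 0.05, DESeq2 called 5.12% and limma-voom called 37.0%.

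Spp1 (ENSMUSG00000029304, GRCm38 chromosome 5, 104435118 to 104441050, plus strand) had 926, 1320 and 1255 reads in control replicates 1 to 3, or 30.7, 37.8 and 40.8 CPM. In knockdown replicates 1 to 3 it had 22237, 12328 and 22633 reads, or 539, 322 and 528 CPM. The lowest knockdown library was 7.90-fold above the highest control, so the groups did not overlap. Within each group the libraries lay close together by comparison, with knockdown replicate 2 the lowest of its group and control replicate 1 the lowest of the controls. Fitted with edgeR, the log2 fold change was 3.67 (SE 0.28), and the ratio of the group means was 12.7 in CPM and 12.7 in FPKM (fragments scaled by transcript length and library size). Without control replicate 1 the log2 fold change was 3.57 (SE 0.26). The unclassified gene Gm42793 overlaps Spp1 on the same strand and had 24 reads in all.

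Among all genes Spp1 ranked 1962 to 2525 by FPKM in the controls and 134 to 293 in the knockdown livers, out of 47719 genes in the deposited FPKM table. Of the 102 genes called higher in the knockdown livers, Spp1 was number 39 by log2 fold change. None of those 102 had a higher mean in the knockdown livers, where Spp1 averaged 463 CPM and the next, the lipid droplet gene Plin2, averaged 448 CPM. Spp1 made up 0.0026% to 0.0039% of gene reads in the controls and 0.033% to 0.060% in the knockdown livers.

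Within 1000000 bases of Spp1 lie 25 other protein-coding genes in the GENCODE M21 annotation, and 18 of them were tested. None was called by edgeR over all genes or by DESeq2, while 6 had an unadjusted p under 0.05 (5 higher and 1 lower; 14.5% over all genes). Limma-voom with quality weights called 8, where it called 37.0% of all genes. The osteopontin relatives Dspp, Dmp1 and Ibsp, which lie in the same cluster and act in bone and tooth mineral, had no read in any library, and Mepe had 1 read in all. Sparcl1, a matrix glycoprotein gene, averaged 4.07 CPM in the controls and 8.30 CPM in the knockdown livers (edgeR adjusted p = 0.261). Pkd2, the polycystin 2 gene just downstream of Spp1, averaged 16.2 and 22.9 CPM (edgeR adjusted p = 0.593). Abcg2, a neighbour in other species, lies on chromosome 6 in the mouse and was left out.

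**Figure D1:**
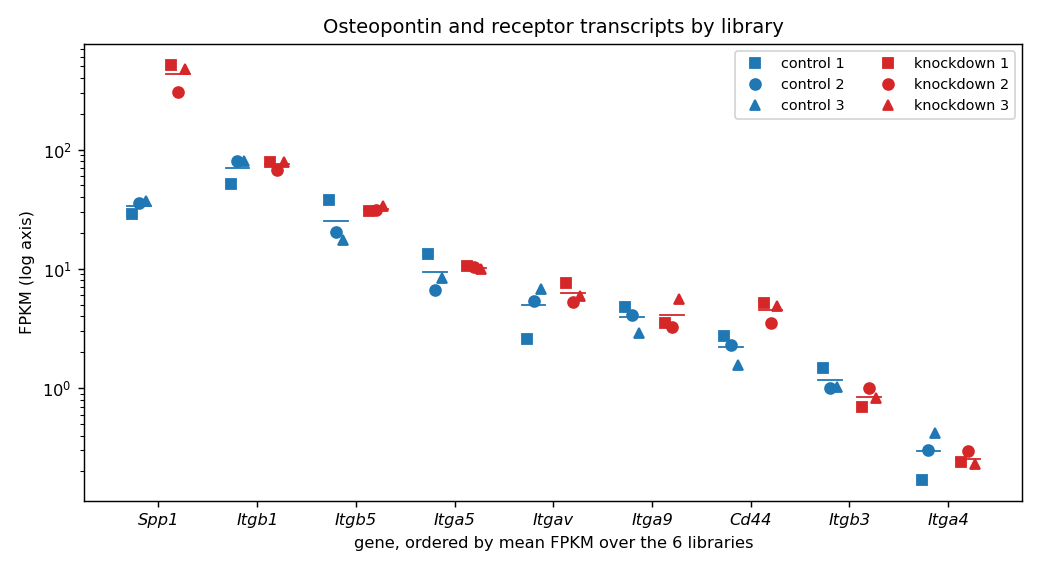
FPKM of 9 of the 10 genes in each library (log axis), ordered by their mean over all libraries, with blue for controls, red for knockdown, symbols for the replicate and short lines for group means; Itgb8 is left out because it is listed at 0 in 1 library. Spp1 lies between 28.9 and 37.3 FPKM in the controls and between 306 and 514 FPKM in the knockdown livers, and Itgb1, the most abundant receptor gene, between 51.4 and 79.9 FPKM in all.

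Levels of different genes can be compared in FPKM, which divides by transcript length. In the controls Itgb1 was the most abundant of the 10 genes at 70.4 ± 16.5 FPKM (SD, n = 3). Spp1 came next at 33.9 ± 4.42 FPKM, and its range overlapped that of Itgb5 at 25.3 ± 11.1 FPKM. Itga5, Itgav and Itga9 followed at 9.40 ± 3.46, 4.95 ± 2.15 and 3.91 ± 0.927 FPKM. The range of Itga5 overlapped that of Itgav, and the range of Itgav that of Itga9. Cd44, Itgb3, Itga4 and Itgb8 came last, at 2.196 ± 0.587, 1.16 ± 0.265, 0.297 ± 0.125 and 0.00931 ± 0.00927 FPKM. Each of these was separated from the gene above it by a gap between their ranges.

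In the knockdown livers Spp1 was first at 430 ± 110 FPKM (SD, n = 3), above Itgb1 at 75.0 ± 6.33 FPKM with no overlap. Cd44, at 4.51 ± 0.872 FPKM, lay above Itga9, at 4.12 ± 1.31 FPKM, and their ranges overlapped. The order of the other genes was the one seen in the controls. The 9 receptor genes summed to 118 ± 2.97 FPKM in the controls and to 133 ± 9.43 FPKM in the knockdown livers. Spp1 FPKM per summed receptor FPKM was 0.253, 0.296 and 0.315 in the controls, against 3.76, 2.50 and 3.36 in the knockdown livers. The ligand transcript was thus below the receptor sum in every control and above it in every knockdown library.

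Cd44 (ENSMUSG00000005087, GRCm38 chromosome 2, 102811141 to 102901665, minus strand) encodes a transmembrane glycoprotein that is found on leukocytes, stellate cells and injured epithelium. The controls had 8.38, 8.20 and 5.56 CPM, again from replicate 1 to 3, and the knockdown livers had 17.7, 11.0 and 18.7 CPM. Its groups did not overlap, and the lowest knockdown library was 1.31-fold above the highest control. As with Spp1, knockdown replicate 2 was the lowest of its group. Its log2 fold change was 1.10 (SE 0.29) with all libraries and 1.21 (SE 0.26) without control replicate 1. Gene counts do not separate the spliced forms of Cd44.

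Itgav (ENSMUSG00000027087, GRCm38 chromosome 2, 83724397 to 83806916, plus strand) encodes integrin alpha v, which pairs with each of the 4 beta subunits described here. The 3 controls had 12.1, 29.7 and 37.5 CPM of it, and the knockdown livers had 35.3, 30.4 and 37.3 CPM. Control replicate 1 was far below the other 5 libraries, which overlapped between the groups. Its log2 fold change was 0.38 (SE 0.39) with all libraries and 0.05 (SE 0.15) without control replicate 1.

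Itgb1 (ENSMUSG00000025809, GRCm38 chromosome 8, 128685654 to 128733200, plus strand) encodes the beta subunit shared by alpha v, alpha 4, alpha 5 and alpha 9, and it was the most abundant of the receptor transcripts. It stood at 179, 279 and 284 CPM in the controls and at 278, 241 and 299 CPM in the knockdown livers. The groups overlapped, and control replicate 1 was again the lowest. Its log2 fold change was 0.14 (SE 0.23) with all libraries and -0.03 (SE 0.15) without control replicate 1.

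Itgb5 (ENSMUSG00000022817, GRCm38 chromosome 16, 33829665 to 33949338, plus strand) encodes the beta subunit of the vitronectin receptor alpha v beta 5. It stood at 127, 64.1 and 59.1 CPM in the controls and at 99.0, 99.5 and 96.2 CPM in the knockdown livers. Here control replicate 1 was the highest of all 6 libraries, whereas the other controls were the lowest. For Itgb5 the log2 fold change was 0.23 (SE 0.31) with all libraries, 0.69 (SE 0.12) without control replicate 1, and 0.34 (SE 0.11) without it and with an offset for GC content and transcript length.

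Itgb3 (ENSMUSG00000020689, GRCm38 chromosome 11, 104608000 to 104670476, plus strand) encodes the beta subunit of alpha v beta 3, which is found on osteoclasts, platelets and vessels that grow. It stood at 8.28, 5.56 and 5.36 CPM in the controls and at 3.66, 5.49 and 4.45 CPM in the knockdown livers. With all libraries it was the only gene of the 9 fitted with a negative log2 fold change, at -0.50 (SE 0.29), and it was at -0.26 (SE 0.23) without control replicate 1. Its groups overlapped in CPM and did not overlap in FPKM.

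Itgb8 (ENSMUSG00000025321, GRCm38 chromosome 12, 119158022 to 119238802, minus strand) encodes a beta subunit that pairs with alpha v and is known for activating latent TGF-beta. It had 0, 2 and 1 reads in the controls and 4, 8 and 4 reads in the knockdown livers, too few to be fitted. From 3 and 16 pooled reads the ratio was 4.18, with an exact 95% counting interval of 1.20 to 22.4. That interval covers counting error only.

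**Figure D2:**
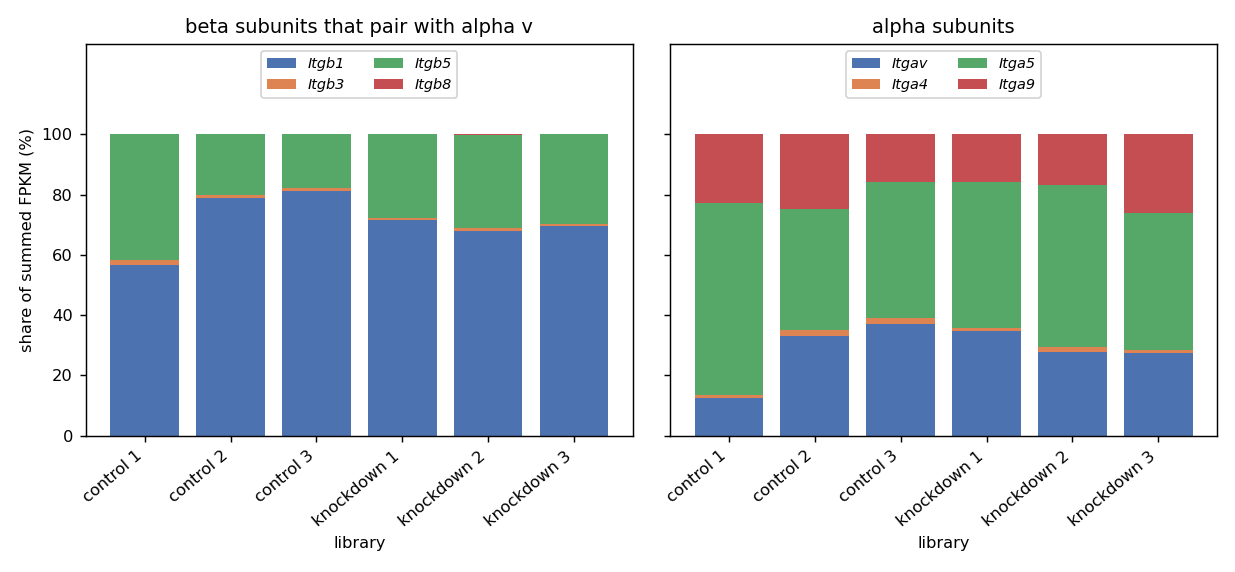
Share of summed FPKM (%) in every library, as stacked bars, taken by each beta subunit among the member genes (left) and by each alpha subunit among them (right). Subunits that are not members, such as Itgb6, are not in the sums. Itgb1 takes 56.6% in control replicate 1 and 67.9% to 81.3% elsewhere, and Itgav takes 12.5% in control replicate 1 and 27.3% to 36.9% elsewhere.

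Among the beta subunits of the member genes, the share of Itgb1 in the summed FPKM was 56.6%, 78.8% and 81.3% in the controls. Itgb6, which also pairs with alpha v, is not a member and is not in this sum. In the knockdown livers it was 71.5%, 67.9% and 69.6%. The share of Itgb5 was 41.8%, 20.2% and 17.7% in the controls, beside 27.9%, 31.1% and 29.7% in the knockdown livers. The knockdown libraries lay between control replicate 1 and the other controls for both subunits. Itgb3 took 0.631% to 1.61% and Itgb8 at most 0.0528% of the sum in any library.

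Itga5 (ENSMUSG00000000555, GRCm38 chromosome 15, 103344286 to 103366763, minus strand) encodes the alpha subunit of the fibronectin receptor alpha 5 beta 1. It stood at 62.0, 30.7 and 40.3 CPM in the controls and at 49.0, 48.1 and 44.0 CPM in the knockdown livers. The knockdown libraries all lay inside the range of the controls. For Itga5 the log2 fold change was 0.09 (SE 0.27) with all libraries, 0.42 (SE 0.14) without control replicate 1 and -0.12 (SE 0.26) without control replicate 2.

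Itga9 (ENSMUSG00000039115, GRCm38 chromosome 9, 118606690 to 118901003, plus strand) encodes the alpha subunit of alpha 9 beta 1, which binds tenascin C as well as osteopontin. It stood at 15.5, 15.3 and 14.6 CPM in the controls and at 17.8, 15.4 and 23.4 CPM in the knockdown livers. Among the receptor genes fitted its controls were the most even in CPM, and knockdown replicate 2 lay among them. In FPKM its controls were less even, at 4.75, 4.08 and 2.91. Knockdown replicates 1 and 2 lay among them there, at 3.50 and 3.22 FPKM. For Itga9 the log2 fold change was 0.32 (SE 0.22) with all libraries and 0.35 (SE 0.19) without control replicate 1. On the log2(FPKM + 1) scale it was 0.05. The antisense gene Gm2415 and the pseudogene Gm10157 overlap it on the opposite strand, with 45 and 53 reads in all.

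Itga4 (ENSMUSG00000027009, GRCm38 chromosome 2, 79255426 to 79333123, plus strand) encodes the alpha subunit of the leukocyte integrin alpha 4 beta 1. It had 12, 61 and 77 reads in the controls, or 0.397, 1.75 and 2.50 CPM. The knockdown livers had 67, 63 and 67 reads, or 1.62, 1.65 and 1.56 CPM. Control replicate 1 was the lowest library and control replicate 3 the highest. The log2 fold change was 0.05 (SE 0.59) with all libraries and -0.38 (SE 0.32) without control replicate 1. Control replicate 1 was at 0.187 of the mean of the other controls in CPM and at 0.468 of it in FPKM. The gene Cerkl overlaps it on the opposite strand and had 83 reads in all.

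Among the 4 alpha subunits of the member genes, without other alpha subunits, Itga5 took the largest share of summed FPKM in each library. It was at 63.8%, 40.2% and 45.1% in the controls, against 48.3%, 53.7% and 45.6% in the knockdown livers. The share of Itgav ran from 12.5% in control replicate 1 to 36.9% in control replicate 3, and that of Itga9 from 15.7% in control replicate 3 to 26.0% in knockdown replicate 3. Itga4 took at most 2.27%. The 4 summed to 18.6 ± 2.199 FPKM in the controls and to 20.9 ± 1.56 FPKM in the knockdown livers (SD, n = 3), with overlap.

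**Figure D3:**
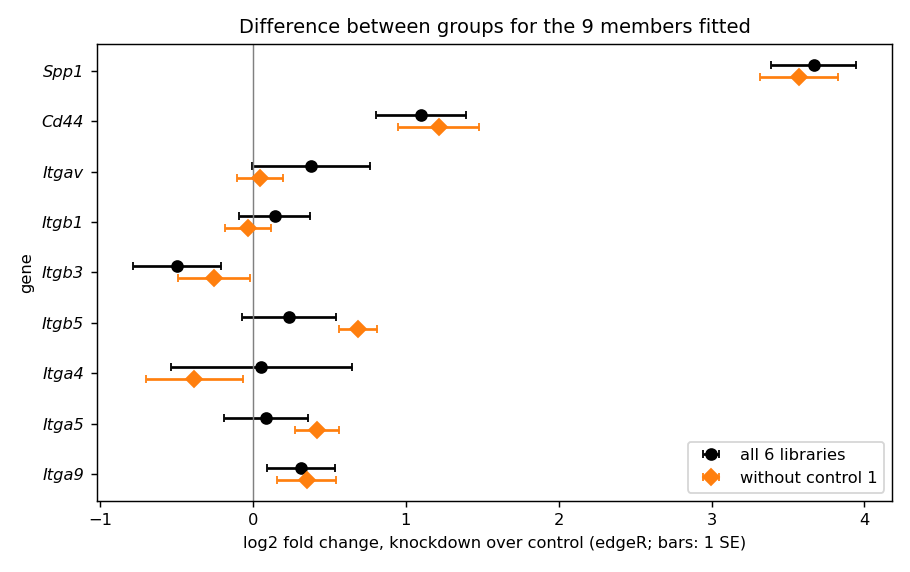
Log2 fold change, knockdown over control, from edgeR for the 9 genes fitted, with bars of 1 SE, for all 6 libraries (black circles) and without control replicate 1 (orange diamonds). Spp1 lies at 3.67 and 3.57, Cd44 at 1.10 and 1.21, and the integrin genes between -0.50 and 0.69 in both fits.

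In the fit over all genes, 1 of the 9 genes fitted was called higher, Spp1, where 0.741% of all genes were (102 higher and 17 lower, or 335 and 204 with an offset for GC content and transcript length). Without control replicate 1 the calls were Spp1, Cd44, Itgb5 and Itga5, so 4 of 9 were called higher, where 16.5% of all genes were. With the offset for GC content and transcript length added to that fit, Itga5 was not called, and 13.6% of all genes were called higher. The Spp1 call with all libraries was lost when control replicate 2 or knockdown replicate 1 or 3 was left out, and no gene was called in those fits. Groups did not overlap with the knockdown higher for 2 of the 9, Spp1 and Cd44, where 13.0% of all genes had such groups and 23.1% had groups apart in either direction. The genes were proposed from this comparison, so nothing is read from these counts. The median log2 fold change of the 8 receptor genes fitted was 0.19, beside -0.05 over all genes fitted.

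The likeness of other genes to Spp1 was measured over the 6 libraries as the mean absolute difference between the log2 CPM of 2 genes, each centred on its own mean. The nearest was Birc5, which encodes survivin of the chromosomal passenger complex, at a mean difference of 0.16 log2 units, where the median over all 13766 other genes was 1.81. It stood at 0.596, 0.545 and 0.650 CPM in the controls and at 7.42, 4.39 and 8.39 CPM in the knockdown livers. Clspn, Cdca3, Foxm1, Knstrn, Dlgap5, Fam83d, Kif20a, 9030619P08Rik and Cdk1 followed, at mean differences of 0.21 to 0.29. Foxm1 is a transcription factor of the G2 and M phases, and Cdk1 is the kinase that drives entry into mitosis. All 10 were called higher by edgeR, and in 9 of them knockdown replicate 2 was the lowest knockdown library, both of which their choice by likeness to Spp1 largely fixes. In Fam83d knockdown replicate 3 was the lowest.

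These 10 genes were far less abundant than Spp1. The highest of them, Cdca3, averaged 19.6 CPM in the knockdown livers, against 463 CPM for Spp1. Without control replicate 1, 3 of the 10 nearest genes were the same, Birc5, Cdca3 and 9030619P08Rik, so the order rests partly on that library. The matrix-associated gene Aebp1 came in among the 10 nearest there. It stood at 2.12 CPM in control replicate 1, and at 0.143 and 0.195 CPM in the other controls. In the knockdown livers it stood between 1.70 and 2.40 CPM.

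**Figure D4:**
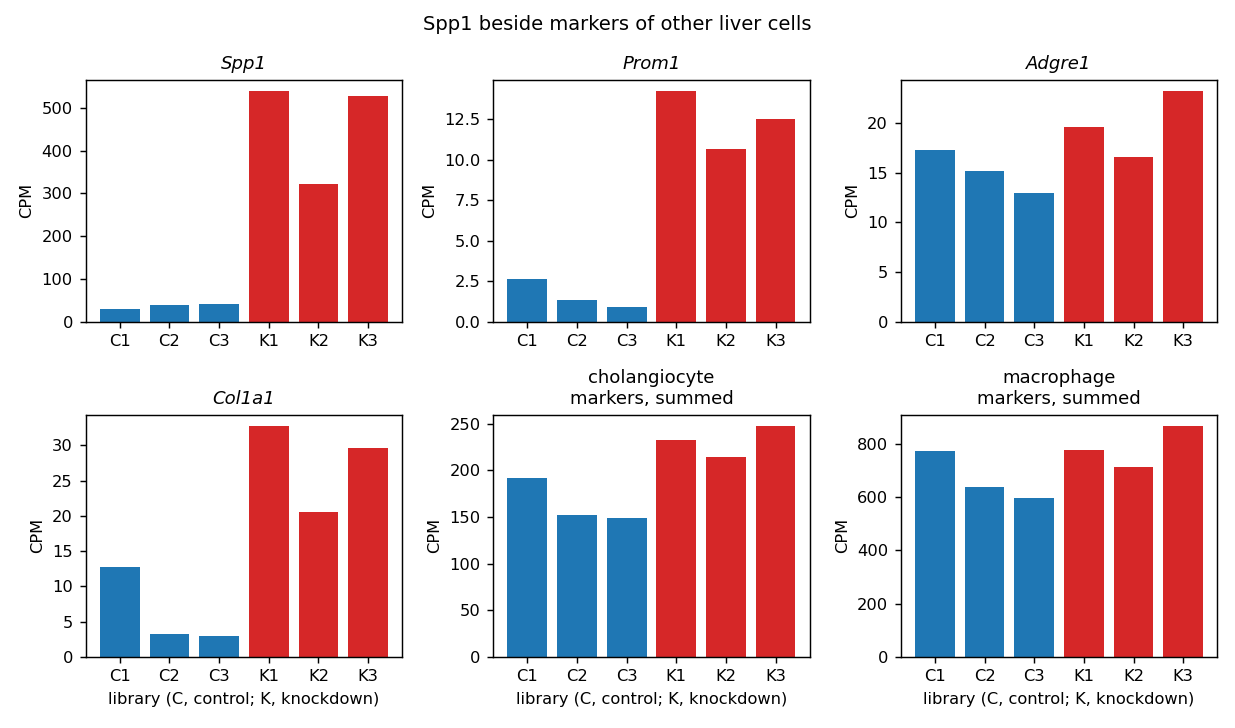
CPM in each library (linear axes from 0) of Spp1, Prom1, Adgre1 and Col1a1, and summed CPM of 17 cholangiocyte and 18 macrophage markers; blue bars are controls and red bars knockdown. The controls lie below every knockdown library for Spp1, Prom1, Col1a1 and the cholangiocyte sum, and overlap them for Adgre1 and the macrophage sum. The overlap in these 2 comes from control replicate 1 alone. Prom1 is the 1 of 11 tested cholangiocyte markers that edgeR called, whereas Adgre1 and Col1a1 are the first of their lists, so the panels are not chosen alike.

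Markers of other liver cells are given beside these values, first those of bile ducts. The 17 cholangiocyte markers, of which Spp1 was not one, summed to 149 to 192 CPM in the controls and to 214 to 247 CPM in the knockdown livers, and the groups did not overlap. Of 11 tested, 6 had groups apart with the knockdown higher, where 13.0% of all genes had. Those with an unadjusted p under 0.05 were 5, all higher (9.14% over all genes), while DESeq2 called 4 and limma-voom with quality weights 9, where they called 5.12% and 37.0% of all genes. By edgeR 1 was called higher, where 0.741% of all genes were. This was Prom1, at 2.62, 1.32 and 0.910 CPM in the controls and 14.2, 10.6 and 12.5 CPM in the knockdown livers (log2 fold change 2.95, SE 0.42, adjusted p = 0.0344). Krt23, Tspan8 and St14, chosen after their values were seen, were among those with an unadjusted p under 0.05, at log2 fold changes of 2.30, 3.11 and 2.25 (edgeR adjusted p = 0.139, 0.193 and 0.153). Of the 11 tested, 9 had a positive log2 fold change and 2 a negative one. The latter were Cldn7 at -1.39 and Cldn4 at -0.19 (edgeR adjusted p = 0.390 and 0.946). The duct keratin genes Krt19 and Krt7 were at most 0.166 and 0.497 CPM in any library, both in control replicate 1, and were below the filter. Epcam stood at 0.762, 0.401 and 0.292 CPM in the controls and at 1.04, 0.523 and 1.35 CPM in the knockdown livers (edgeR adjusted p = 0.465). In the knockdown livers Spp1 alone exceeded the sum of the 17 cholangiocyte markers in each library.

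The 18 macrophage markers summed to 595 to 774 CPM in the controls and to 715 to 866 CPM in the knockdown livers, with overlap. The overlap came from control replicate 1 alone, at 774 CPM beside 639 and 595 CPM in the other controls. Of the 18, 15 had a positive log2 fold change and 3 a negative one. Their median was 0.49, and 0.58 without control replicate 1, beside -0.05 and 0.01 over all genes. With all libraries none was called by edgeR, while 6 had an unadjusted p under 0.05 (4 higher and 2 lower, beside 14.5% over all genes). Without control replicate 1, edgeR called 10 higher and 2 lower, where 16.5% and 16.1% of all genes were. DESeq2 called 3 and limma-voom with quality weights 13, where they called 5.12% and 37.0% of all genes. Adgre1, which encodes F4/80, averaged 15.2 and 19.8 CPM, Cd68 averaged 21.4 and 31.4 CPM, and Csf1r, the receptor for macrophage growth factor, averaged 57.5 and 60.1 CPM. Control replicate 1, the lowest library for Spp1, was the highest of all 6 for 5 of the 18 markers (Csf1r, Trem2, Gpnmb, Vsig4 and Marco) and the lowest for 2 of them (Lpl and Mertk).

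The 14 stellate cell and fibroblast markers summed to 223 to 268 CPM in the controls and to 360 to 523 CPM in the knockdown livers, without overlap. All were tested, and 8 had an unadjusted p under 0.05, all higher (9.14% over all genes). DESeq2 called 5 and limma-voom with quality weights 10, where they called 5.12% and 37.0% of all genes. By edgeR 1 was called higher, where 0.741% of all genes were. This was Acta2, which encodes smooth muscle actin and averaged 1.10 CPM in the knockdown livers (adjusted p = 0.0282). From 2 reads pooled over the controls and 135 over the knockdown livers its ratio was 52.8, with an exact 95% interval of 14.3 to 440.8 that covers counting error only. The calls of Prom1 and Acta2 held without control replicate 1 and were lost with any other library left out (edgeR adjusted p = 0.0748 to 0.206 for Prom1 and 0.07003 to 0.204 for Acta2). Col1a1 stood at 12.7, 3.27 and 2.96 CPM in the controls and at 32.7, 20.5 and 29.6 CPM in the knockdown livers (edgeR adjusted p = 0.163). Col1a2 and Col3a1 averaged 10.9 and 23.0 CPM in the controls and 31.3 and 95.5 CPM in the knockdown livers (edgeR adjusted p = 0.149 and 0.0801). Of the 14, 13 had a positive log2 fold change and 1, Rgs5, a negative one. Rgs5, Lrat and Dcn stood at -0.32, 0.17 and 0.13, with overlap of the groups. Without control replicate 1 they stood at -0.80, -0.17 and -0.17. In that fit edgeR called 9 of the 14 higher, where 16.5% of all genes were.

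Leukocyte and platelet markers, which bear on Itga4, Cd44 and Itgb3, were low. Of 12 lymphocyte markers 1 was tested, the pan-leukocyte gene Ptprc, at 0.530, 5.42 and 5.98 CPM in the controls and 3.78, 4.83 and 4.29 CPM in the knockdown livers. Its lowest library, control replicate 1, was also the lowest for Itga4. Itgb2 of leukocytes and the alpha subunit genes Itgal and Itgax went the other way among the controls. They stood at 20.6, 15.2 and 12.4 CPM in control replicate 1 and at most at 9.20, 8.69 and 2.90 CPM in the other controls. Cd3e and Cd3g were at most 0.199 CPM. The neutrophil markers summed to at most 2.62 CPM, with S100a8 and S100a9 below the filter and Ly6g without a read. Platelet markers summed to 3.15 to 6.72 CPM in the controls and to 3.95 to 4.64 CPM in the knockdown livers, with Pf4 and Gp1ba at most 1.02 CPM and Ppbp below the filter. Most of that sum was the integrin subunit gene Itga2b. It stood at 5.30, 2.87 and 2.63 CPM in the controls and at 3.30, 3.27 and 3.68 CPM in the knockdown livers (edgeR adjusted p = 0.944). The 11 endothelial markers summed to 191 to 247 CPM in the controls and to 200 to 253 CPM in the knockdown livers, where Pecam1, Cdh5 and Kdr averaged 15.4, 24.1 and 32.5 CPM. Of 5 mesothelial markers Lrrn4 was tested, at 1.36 and 0.579 CPM on average, while Upk3b had no read and Msln was at most 0.166 CPM. Of the lymphocyte, neutrophil, endothelial, platelet and mesothelial markers, 17 were tested and none was called by edgeR or DESeq2. An unadjusted p under 0.05 was reached by 1 of them, Lrrn4, and limma-voom with quality weights called 4. Over all genes, edgeR called 0.864%, DESeq2 5.12% and limma-voom 37.0%, and 14.5% had an unadjusted p under 0.05. The part of these cells in the osteopontin and receptor values was not tested.

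The wider pathway was described through lists of genes that are not members. Without repeats, 7 of these lists held 100 genes, of which 76 were tested. None was called by edgeR over all genes, where 0.864% of all genes were. At an unadjusted p under 0.05 there were 16, all higher in the knockdown livers, where 9.14% of all genes were higher at that p. DESeq2 called 5 and limma-voom with quality weights 39, beside 5.12% and 37.0% of all genes. Their median log2 fold change was 0.33, beside -0.05 over all genes. Without control replicate 1, 33 were called higher and 4 lower of 77 tested, where 16.5% and 16.1% of all genes were.

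**Figure D5:**
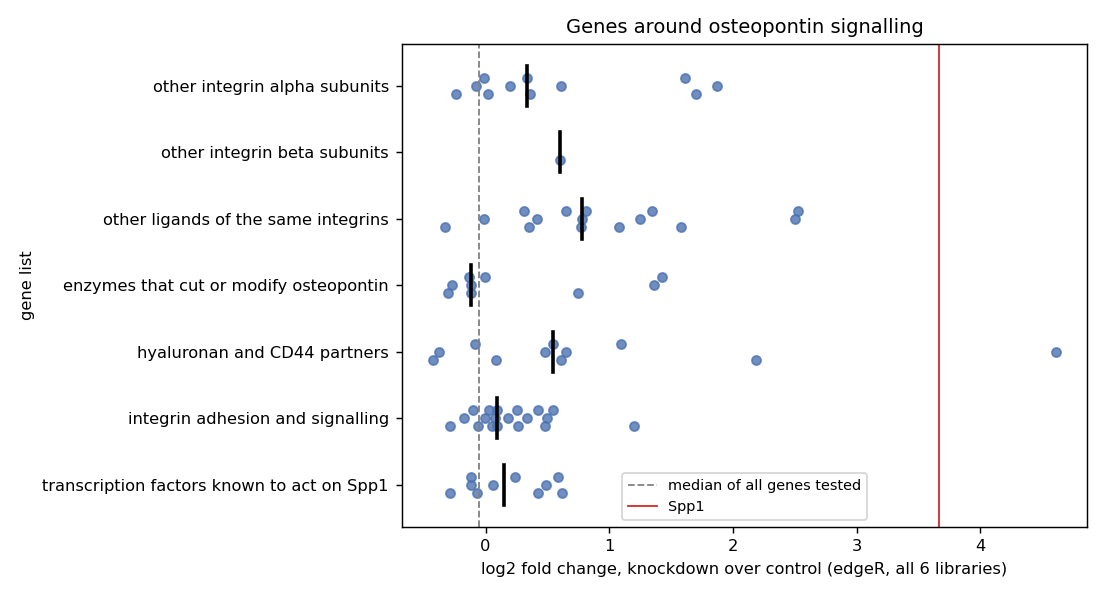
Log2 fold change, knockdown over control, from edgeR with all 6 libraries for each tested gene of 7 lists; points are genes, black bars list medians, the dashed line the median of all genes tested and the red line Spp1. The ligand list has the highest median of the lists with more than 1 gene, at 0.78, and Hmmr is the gene that lies beyond Spp1.

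Other ligands of these integrins had a median log2 fold change of 0.78 over 15 tested of 20, and 13 of the 15 were positive. Their summed CPM overlapped, at 3447 to 6807 in the controls and 4296 to 5839 in the knockdown livers. The most abundant, Vtn and Fn1, averaged 2308 and 2008 CPM in the controls and 2293 and 2496 CPM in the knockdown livers, with overlap. Their log2 fold changes were -0.01 and 0.31, and 0.38 and 0.76 without control replicate 1. The matricellular gene Cyr61 averaged 83.8 CPM in the controls and 177 CPM in the knockdown livers (edgeR adjusted p = 0.153). Tnc, which encodes tenascin C, stood at 0.861, 0.229 and 0.130 CPM in the controls and at 2.62, 1.72 and 2.68 CPM in the knockdown livers (edgeR adjusted p = 0.154). Thbs1, the thrombospondin 1 gene, averaged 0.685 and 3.87 CPM (edgeR adjusted p = 0.184). In Cyr61, Tnc and Thbs1 the groups did not overlap, which their choice by smallest p largely fixes. Of the 15 tested, 8 had groups apart with the knockdown higher, where 13.0% of all genes had. Edil3, Ibsp and Dmp1 had no read.

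Of the other integrin alpha subunit genes 11 of 14 were tested, with a median of 0.34 that was 0.80 without control replicate 1. Itga6, which encodes a laminin receptor subunit of epithelia, stood at 2.78, 4.87 and 2.79 CPM in the controls and at 15.1, 6.27 and 12.7 CPM in the knockdown livers (edgeR adjusted p = 0.124). Its groups did not overlap, and knockdown replicate 2 was the lowest of its group, as for Spp1 and Cd44. Of the 11 tested, 3 had groups apart with the knockdown higher, where 13.0% of all genes had. Itga2, a collagen receptor subunit, averaged 0.110 and 0.419 CPM, and Itga8, whose product with beta 1 also binds osteopontin, averaged 0.707 and 2.17 CPM (edgeR adjusted p = 0.388 and 0.390). Of 5 other beta subunit genes, Itgb2 of leukocytes was tested. It averaged 12.1 CPM in the controls and 18.4 CPM in the knockdown livers (log2 fold change 0.60, edgeR adjusted p = 0.570; 1.23 without control replicate 1), with control replicate 1 at 20.6 CPM beside 9.20 and 6.60 CPM in the other controls. Itgb6, the epithelial partner of alpha v, was at most 0.489 CPM and was below the filter.

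Enzymes that cut or modify osteopontin had a median log2 fold change of -0.12 over 9 tested of 13. The sign turned without control replicate 1, to 0.37 over 10 tested. The thrombin gene F2 and the plasminogen gene Plg, both made by hepatocytes, were abundant in each library, at 1423 to 2888 CPM and 1623 to 4026 CPM. Tgm2, the transglutaminase that crosslinks matrix proteins, averaged 125 CPM in the controls and 210 CPM in the knockdown livers (edgeR adjusted p = 0.172). The metalloproteinase genes Mmp2 and Mmp12 averaged 0.982 and 16.6 CPM in the controls and 2.65 and 42.7 CPM in the knockdown livers (edgeR adjusted p = 0.275 and 0.334). Mmp3 and Phex had no read.

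Hyaluronan genes and CD44 partners had a median of 0.54 over 11 tested of 16, and of 0.84 without control replicate 1. Hmmr, a hyaluronan receptor gene whose product also binds the mitotic spindle, stood at 0, 0.0287 and 0.747 CPM in the controls and at 5.19, 3.37 and 10.4 CPM in the knockdown livers (edgeR adjusted p = 0.140). Vcan, the versican gene, averaged 0.161 and 0.756 CPM (edgeR adjusted p = 0.153). Msn, which encodes moesin that links CD44 to actin, averaged 20.6 and 32.4 CPM (edgeR adjusted p = 0.259). The groups did not overlap in any of these 3, which their choice by smallest p largely fixes. Of the 11 tested, 4 had groups apart with the knockdown higher, where 13.0% of all genes had. The hyaluronan synthase genes Has1, Has2 and Has3 were at most 0.232 CPM.

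Genes of integrin adhesion and signalling had a median of 0.09 over 19 tested of 20. It was 0.36 without control replicate 1, with 7 called higher and 1 lower, beside a median of 0.01 over all genes in that fit. Src stood at 9.41, 2.47 and 2.96 CPM in the controls and at 12.9, 9.83 and 11.4 CPM in the knockdown livers (edgeR adjusted p = 0.342). Fermt2, which encodes the integrin activator kindlin 2, averaged 56.1 and 79.4 CPM, and Vcl, the vinculin gene, averaged 36.5 and 48.9 CPM (edgeR adjusted p = 0.362 and 0.491). The focal adhesion kinase gene Ptk2 had a log2 fold change of -0.10 (SE 0.20) and the talin gene Tln1 one of 0.07 (SE 0.24). Ilk had 8 reads in all count files and 26.0 to 46.2 FPKM, and no value from its counts is used. It was not alone: of 9531 genes at 1 FPKM or more in each library, 47 had fewer than 10 reads in all, so counts of other genes may be lowered too.

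Transcription factors known to act on Spp1 had a median of 0.15 over 10 tested of 12, and of 0.04 without control replicate 1. Ets1 averaged 11.9 CPM in the controls and 18.3 CPM in the knockdown livers, Nfatc1 averaged 8.33 and 12.5 CPM, and Junb averaged 62.4 and 87.5 CPM (edgeR adjusted p = 0.343, 0.471 and 0.669). Sox9, also a duct cell marker, stood at 7.35, 12.8 and 10.5 CPM in the controls and at 13.3, 8.94 and 9.84 CPM in the knockdown livers, with overlap. Runx2 and Gli1 were below the filter.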

How the data were processed

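The authors deposited raw read counts per gene for each of the 6 samples and 1 table of FPKM values. The tools named, per the submitters' processing notes, are HISAT2 2.10, HTSeq, Cufflinks 2.2.1, Trim Galore and FastQC, on GRCm38 (mm10), without their roles. The closing lines of the count files that name no gene (reads outside genes, 2.48% to 5.66%, and ambiguous reads, 4.69% to 6.87%) were left out. Strand use in counting is not stated in the sources used here.

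Members and lists were chosen with earlier results of these data known. Symbols came from the FPKM table and were joined to counts by identifier. After the filterByExpr filter and TMM scaling, group was the only term in a quasi-likelihood fit with edgeR 4.0.16 in R 4.3.3, with Benjamini-Hochberg adjustment over 13767 genes and a threshold of 0.05. CPM uses TMM-scaled library sizes, log2 CPM a prior count of 2, and an SE is the log2 fold change over the root of the test statistic. A floor of 3 reads was 0.0699 to 0.0993 CPM per library. No pair of libraries agreed within sampling noise (chi-square per gene at least 50.2). The alternatives replaced the scaling by median ratio size factors, the filter by none or by 1 CPM in 3 libraries, and the test by DESeq2 1.42.0 or by limma 3.58.1. The latter used voom with quality weights, or FPKM with a pseudocount of 1 or 0.1 for genes at 0.5 FPKM in 3 libraries. Others added a replicate block, dropped mitochondrial genes with the 20 most abundant, or omitted 1 library at a time. An offset for GC content and transcript length (loess, span 0.3) was added after seeing the data. The genes named were all members, called genes and the 3 with the smallest p of each wider list, the first 3 and any called of each marker list, and the 10 nearest profiles; any other gene named was picked with its values in view. Promoter windows are from RefSeq on GRCm38.p6, coordinates from GENCODE M21.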

Additional observations from a re-analysis of the deposited data

How the results depend on the processing

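The Spp1 log2 fold change stayed between 3.57 and 3.93 under all 17 alternatives, with 3.64 for the replicate block and a range of 3.57 to 3.93 with each library left out. Of the receptor genes, Cd44 ranged from 0.79 to 1.36 and Itgb3 from -0.63 to -0.23. Itgb1, Itga4 and Itga5 had both signs among the alternatives, between -0.03 and 0.28, -0.38 and 0.57, and -0.12 and 0.47. The counts over all genes moved far more, and the cause was not tested. Against 102 higher and 17 lower genes, no filter gave 213 and 34, DESeq2 590 and 221, limma-voom with quality weights 2576 and 2512, the replicate block 33 and 2, the GC and length offset 335 and 204, and that offset without control replicate 1 1923 and 2480. With 1 library left out the counts ran from 0 to 2348 higher and from 0 to 2284 lower, the highest without control replicate 1, and 0 when control replicate 2 or knockdown replicate 1 or 3 was left out, so Spp1 was not called there either. The fits with 0 calls had 1633, 1130 and 1224 genes at an unadjusted p under 0.05. Samples with the same replicate number deviated together at correlations of 0.253, -0.082 and 0.290, so the numbers were not taken to pair the samples. Among these fits with 1 library left out, the wider lists had calls only without control replicate 1. Itgb8, with 19 reads in all, was too shallow to be fitted.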
